A study of Homo sapiens with 8 samples.

Results

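Domains of the histone variant macroH2A1 on human chromosome 16 were described in HepG2, an established hepatoblastoma cell line from liver. All domains on that chromosome were taken from 4 deposited domain lists, and all chromosome 16 rows from the authors' deposited table of regions compared between the groups. The 2 siControl libraries held 283 and 297 chromosome 16 domains (replicates 1 and 2) of 8623 and 8116 in all, and the 2 siANP32B libraries held 246 and 217 of 7530 and 7404. The authors' deposited table held 149 chromosome 16 regions of 4474. siControl cells received a non-targeting control siRNA and siANP32B cells an siRNA against ANP32B, in both cases 3 days before harvest. The parental HepG2 line was otherwise unmodified in both groups as far as the labels say. macroH2A1 was mapped by CUT&RUN, in which an antibody guides a nuclease to its target and the released DNA is sequenced, and the study asked how ANP32B bears on where macroH2A sits in chromatin. The labels number the replicates without naming them as separate cultures. Spreads and p-values therefore cover these libraries alone and may be technical. Chromosome 16 is one of the chromosomes reported to be present in extra copies in HepG2. Copy number and the level of ANP32B were not analysed here.

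macroH2A1 replaces ordinary H2A in a fraction of nucleosomes and differs from it by a large globular macro domain at its end. It forms broad domains over silent chromatin, the inactive X chromosome being the textbook case, and over repressed genes of other cell lineages. ANP32B is a nuclear acidic protein that binds histones as a chaperone.

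In both siANP32B libraries the deposited domains were longer and covered more of chromosome 16 than in either siControl library. They were also fewer, though not when equal numbers of the best-scored domains were taken from each library. In no 5 Mb step did both siANP32B libraries lie below both siControl libraries, against 10.6% of steps over all chromosomes. With a common minimum score this turned, with 11 of 17 steps below and 1 above. The gained length lay mostly beside or between domains present in siControl. It took in the glutamate receptor gene GRIN2A, the heparan sulfate modifying enzyme gene HS3ST2 and the start of the orphan receptor gene GPR139. Inside the domains, the authors' deposited table gave lower macroH2A1 signal after siANP32B in 88 of 149 regions (59.1%, near the 58.4% over all chromosomes). Among these were regions at the acyl-CoA ligase gene ACSM2B and the cadherin genes CDH1 and CDH3. The authors' deposited table gave higher signal in 7 regions (4.70%, against 3.82% over all chromosomes), among them 1 at TMC7. The difference in covered length depended on how domains were chosen by the caller's score: with a common minimum score it turned around, and with equal numbers of best-scored domains it widened, as given below.

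The sequences below show what starts of transcription lie in these places. Each is the window from 250 bases before to 50 bases after an annotated start in the RefSeq annotation of GRCh38.p14, written 5′ to 3′ on the gene's own strand, with CG pairs in capitals. SOCS1, an inhibitor of cytokine signalling, and PRM2, which codes for a protamine that packs DNA in sperm, are neighbours within the longest stretch that the siControl libraries have in common. The start of GPR139 and that of KDM8, a protein hydroxylase gene, lie in stretches that were in domains of both siANP32B libraries but of no siControl library. The start of SNX29, a sorting nexin gene, lies in a stretch with the opposite pattern. The start of TMC7, a transmembrane channel-like gene, lies in a region that the authors' deposited table calls higher after siANP32B.
SOCS1, minus strand, chr16:11256155-11256454: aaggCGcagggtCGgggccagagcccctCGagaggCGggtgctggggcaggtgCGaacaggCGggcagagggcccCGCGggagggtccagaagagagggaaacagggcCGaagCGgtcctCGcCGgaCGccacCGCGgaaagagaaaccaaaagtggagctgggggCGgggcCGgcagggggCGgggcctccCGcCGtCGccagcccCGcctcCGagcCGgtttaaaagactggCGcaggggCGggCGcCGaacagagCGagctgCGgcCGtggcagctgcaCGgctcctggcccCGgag
PRM2, minus strand, chr16:11276431-11276730: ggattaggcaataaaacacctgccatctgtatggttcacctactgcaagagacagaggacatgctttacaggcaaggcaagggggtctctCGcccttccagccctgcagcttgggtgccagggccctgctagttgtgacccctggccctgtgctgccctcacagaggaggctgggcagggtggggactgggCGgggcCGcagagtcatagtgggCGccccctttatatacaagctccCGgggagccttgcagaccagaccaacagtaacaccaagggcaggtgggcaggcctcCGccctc
GPR139, minus strand, chr16:20073841-20074140: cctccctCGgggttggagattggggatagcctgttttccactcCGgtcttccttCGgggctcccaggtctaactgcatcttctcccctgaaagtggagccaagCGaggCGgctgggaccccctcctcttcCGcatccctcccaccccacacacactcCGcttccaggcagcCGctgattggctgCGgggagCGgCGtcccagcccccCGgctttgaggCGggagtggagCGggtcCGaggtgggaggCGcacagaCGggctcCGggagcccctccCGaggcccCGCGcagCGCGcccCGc
KDM8, plus strand, chr16:27203276-27203575: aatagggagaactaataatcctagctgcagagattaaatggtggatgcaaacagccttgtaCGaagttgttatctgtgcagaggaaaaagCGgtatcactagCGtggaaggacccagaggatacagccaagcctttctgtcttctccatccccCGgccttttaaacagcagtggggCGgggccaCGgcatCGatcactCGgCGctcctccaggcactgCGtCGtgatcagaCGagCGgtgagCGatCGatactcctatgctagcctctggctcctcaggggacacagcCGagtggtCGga
SNX29, plus strand, chr16:11976484-11976783: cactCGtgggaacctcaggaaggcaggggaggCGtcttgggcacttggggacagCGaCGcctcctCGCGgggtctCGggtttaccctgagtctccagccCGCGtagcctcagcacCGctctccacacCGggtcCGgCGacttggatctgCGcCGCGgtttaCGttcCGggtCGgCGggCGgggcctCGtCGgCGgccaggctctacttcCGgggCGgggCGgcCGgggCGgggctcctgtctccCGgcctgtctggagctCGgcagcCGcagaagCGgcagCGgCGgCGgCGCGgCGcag
TMC7, plus strand, chr16:18984037-18984336: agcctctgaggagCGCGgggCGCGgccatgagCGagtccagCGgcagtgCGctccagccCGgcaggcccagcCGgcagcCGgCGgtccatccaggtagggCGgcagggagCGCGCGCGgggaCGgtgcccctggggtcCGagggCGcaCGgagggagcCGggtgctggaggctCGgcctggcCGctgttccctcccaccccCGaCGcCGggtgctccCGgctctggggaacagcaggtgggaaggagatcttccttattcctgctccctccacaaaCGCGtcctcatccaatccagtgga

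The printed windows hold 33 CG pairs for SOCS1, 6 for PRM2, 24 for GPR139, 17 for KDM8, 39 for SNX29 and 29 for TMC7. RefSeq windows matched 611 of the 854 protein-coding genes of chromosome 16, with 822 windows in all. The 139 windows that lay in domains of all 4 libraries held a median of 13 CG pairs in 300 bases. The 308 windows in domains of 1 to 3 libraries held a median of 26, and the 375 in no domain a median of 28. The median was 26 over the 822 windows of chromosome 16 and 21 over 22199 windows of coding genes on all chromosomes. The letters TATAAA, searched on both strands, were in 9.35% of the windows in domains of all 4 libraries, 4% of those in no domain and 9.47% of all coding windows. The letters CCGCCC, searched likewise, were in 54.7%, 69.6% and 56.3% of the same windows. Starts within the shared domains thus held fewer CG pairs at the median than starts outside. The upper quartile of the windows in domains of all 4 libraries was 28. SOCS1, with 33, lies above it, and PRM2, with 6, lies below their median.

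Among small RNA genes, MIR365A was the miRNA gene that lay within domains of both siANP32B libraries and outside those of both siControl libraries, at 0% and 0% of its bins in siControl and 100% and 100% in siANP32B. Its neighbour MIR193B was at 0%, 0%, 100% and 0% in the same order, so it lay in a domain of siANP32B replicate 1 only. In all, 12 of 82 miRNA genes on the chromosome (14.6%) were covered in both siControl libraries, near the 17.2% over all chromosomes. The mature 3′ arm of miR-365a is shown with its seed, bases 2 to 8, in capitals, from RefSeq.
hsa-miR-365a-3p, plus strand, chr16:14309340-14309361: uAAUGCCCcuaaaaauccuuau

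Of the 26 tRNA genes on the chromosome, 18 (69.2%) were covered in both siControl libraries, against 44.5% of tRNA genes over all chromosomes. A cluster at chr16:3150674-3192060 held 14 of the 26, and its covered genes numbered 14 and 14 in siControl and 14 and 13 in siANP32B. The other 12 had 5, 4, 6 and 3 covered genes in the order siControl replicates 1 and 2, siANP32B replicates 1 and 2. Long non-coding RNA genes were covered in both siControl libraries in 210 of 625 cases (33.6%), against 21.7% over all chromosomes.

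Coverage was read on a grid of 1 kb bins over the annotated span of 90.2 Mb. Chromosome 16 domains covered 22.1 and 21.5 Mb in siControl replicates 1 and 2. The siANP32B domains covered 30.6 and 26.6 Mb in replicates 1 and 2. Both siANP32B libraries lay above both siControl libraries, with the gap between the closest libraries of the groups wider than the spread within either group. The mean was 21.8 ± 0.426 Mb (SD, n = 2) in siControl and 28.6 ± 2.78 Mb (SD, n = 2) in siANP32B, 1.31-fold (exact permutation test, two-sided, p = 0.33). With 2 libraries a group 0.33 is the smallest p this test can give, so no comparison of libraries here can pass 0.05. Limited to domains scored at or above 81.1, the median score of all 4 lists, the covered length was 10.4 and 10.7 Mb in siControl but 6.57 and 5.08 Mb in siANP32B, so the direction turned. With the 7404 best-scored domains of each library, chromosome 16 domains covered 15.7 and 17.3 Mb in siControl against 27.2 and 26.6 Mb in siANP32B, a difference of 10.4 Mb. With that choice they numbered 213 and 245 in siControl and 235 and 217 in siANP32B, and the groups overlap. Depth per library is unknown, and the length that a domain caller finds moves with depth.

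As a share of the span, siControl coverage was 24.5% and 23.8% against 33.9% and 29.5% for siANP32B. The other chromosomes together were at 16.6% and 14.9% in siControl and 17.8% and 17.8% in siANP32B. The share of all domain length that lay on chromosome 16 was 4.26% and 4.60% for siControl against 5.42% and 4.77% for siANP32B (groups do not overlap, exact permutation p = 0.33). The chromosome makes up 2.92% of the span of all chromosomes. Among 24 chromosomes it ranked 5 by mean siControl coverage, and 1 both by the points gained (7.53 percentage points) and by the fold.

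The other chromosomes reported as gained in HepG2 did not all move alike. Chromosome 20 went from a mean of 34.1% to 40.7%, chromosome 2 from 24.4% to 29.4% and chromosome 17 from 29.2% to 33.7%. Chromosome 14 was at 15.1% and 15.3%, and ranked 22 by points gained. The part of copy number in these values was not tested.

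**Figure D1:**
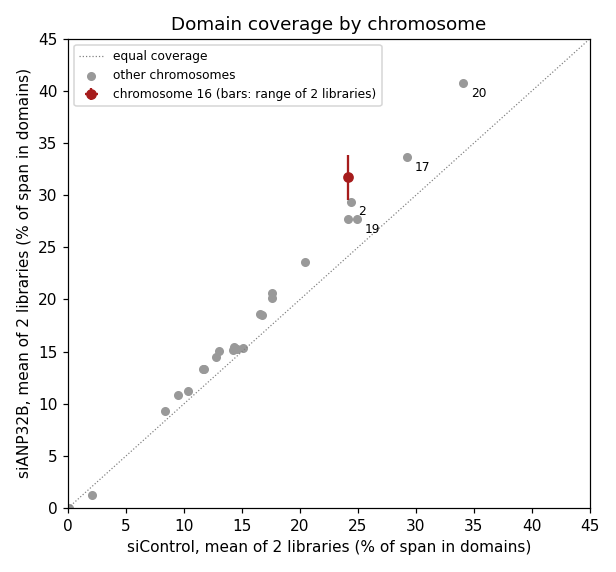
Share of each chromosome's span in macroH2A1 domains, mean of 2 siControl libraries (x axis, %) against mean of 2 siANP32B libraries (y axis, %). Each grey point is 1 of the other chromosomes, and chromosome 16 (red, bars give the range of its 2 libraries) lies above the dotted line of equal coverage at 24.2% and 31.7%.

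The domains were longer in siANP32B. Median domain length was 49 and 50 kb in siControl and 78 and 73 kb in siANP32B, a mean difference of 26.0 kb (exact permutation p = 0.33). Domains over 200 kb numbered 19 and 13 in siControl and 38 and 37 in siANP32B. They held 25% and 16.2% of the covered length in siControl and 48.9% and 49.9% in siANP32B. Domains over 500 kb numbered 1, 0, 8 and 6 in the same order. The score that the authors' caller gave each domain was lower in siANP32B, with medians of 75.1 and 79.8 in siControl and 53.3 and 53.7 in siANP32B. It was lower on the other chromosomes too, at 89.4 and 98.6 against 70.4 and 67.9. These scores are the caller's own, on a scale that no source used here gives.

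**Figure D2:**
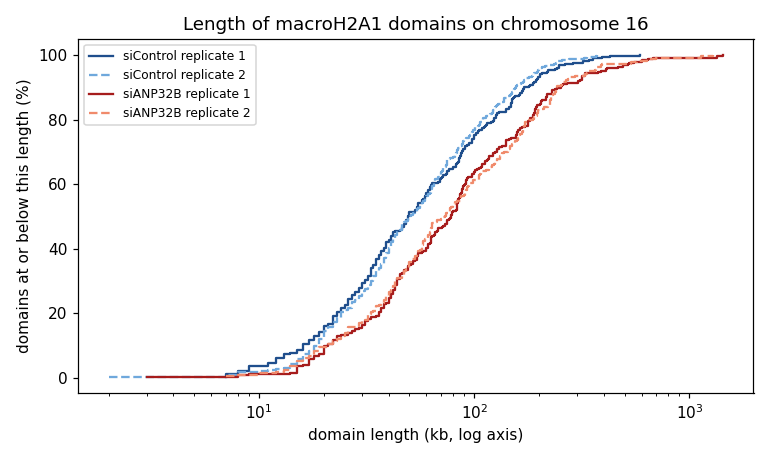
Cumulative share of chromosome 16 domains (y axis, %) at or below each length (x axis, kb, log axis), 1 line per library. The siANP32B lines lie to the right of the siControl lines over most of the range, with medians of 78 and 73 kb against 49 and 50 kb.

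Single siANP32B domains often spanned several siControl domains. Of the domains of siANP32B replicate 1, 15.4% spanned 2 or more domains of siControl replicate 1 and 20.7% spanned 2 or more of siControl replicate 2. For siANP32B replicate 2 these shares were 18% and 24%. In the opposite direction they ran from 3.37% to 5.05%. Between libraries of the same group they ran from 5.39% to 11.3%, with the highest for siControl replicate 1 over siControl replicate 2.

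The 2 longest domains lay at 16p13. In siANP32B replicate 1 the longest ran from chr16:8956001-10387000, 1431 kb, and in siANP32B replicate 2 its counterpart ran from chr16:9112001-10407000, 1295 kb. The first overlapped 4 domains of siControl replicate 1 and 8 of siControl replicate 2, which covered 57.5% and 53.2% of it. It held GRIN2A, a subunit gene of the NMDA glutamate receptor of neurons, and HAPSTR1 whole, with parts of the ubiquitin protease gene USP7 and of ATF7IP2. GRIN2A, 430 kb long, had 35.1% and 47.0% of its bins in siControl domains and 100% and 100% in siANP32B domains. The groups do not overlap. One end of GRIN2A lay in a stretch shared by both siControl libraries, 319 kb at chr16:10074001-10393000. That stretch held 3 tested regions, and the authors' deposited table placed none of them under a false discovery rate of 0.05. Elsewhere in the longest domain, the authors' deposited table called regions lower at chr16:8970001-8990000, chr16:9006001-9058000 and chr16:9312001-9324000. Their log2 folds were -0.38, -0.92 and -0.62.

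**Figure D3:**
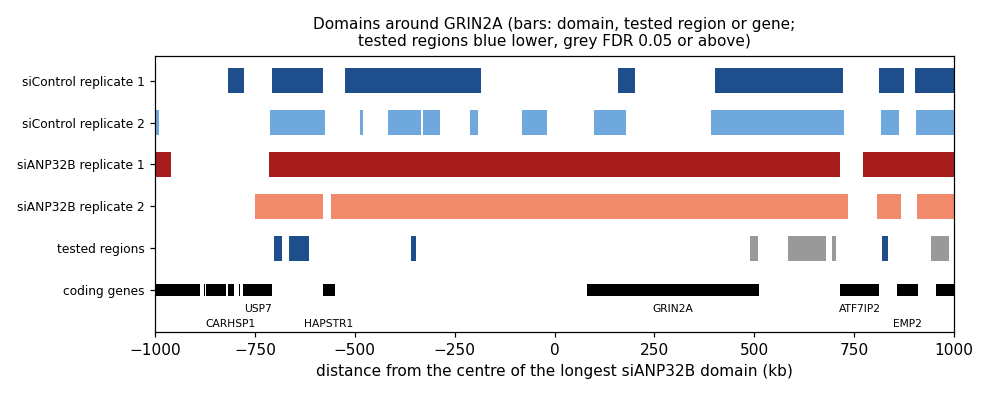
Domains of the 4 libraries, regions of the authors' deposited table and coding genes around GRIN2A, drawn to scale by distance from the centre of the longest siANP32B domain (x axis, kb). Over the span of the longest domain, siANP32B replicates 1 and 2 show 1 and 2 domains where siControl replicates 1 and 2 show 4 and 8.

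The second, at chr16:12749001-14099000 in siANP32B replicate 1 (1350 kb) and chr16:12788001-13925000 in siANP32B replicate 2 (1137 kb), held SHISA9, which codes for a protein associated with AMPA glutamate receptors. SHISA9 had 73.8% and 82.2% of its bins in siControl domains and 100% and 100% in siANP32B domains. The scores of these 2 domains, 16.3 and 23, were below the median of their libraries. The ends differed between the replicates. The domain of siANP32B replicate 1 reached MRTFB, a coactivator gene of serum response factor, and that of siANP32B replicate 2 did not.

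Further long siANP32B domains held several genes each. A domain of 640 kb in siANP32B replicate 1 and 637 kb in siANP32B replicate 2 ran over GPRC5B, GPR139, GP2, UMOD, PDILT and ACSM5, where siControl domains covered 44.8% and 68.1% of the first. UMOD codes for the main protein of urine and GP2 for a pancreatic granule protein, and both were at 0%, 100%, 100% and 100% in the 4 libraries, so siControl replicate 1 stood apart from the other 3. A domain of 554 kb and 533 kb held HS3ST2 and part of USP31, another ubiquitin protease gene. HS3ST2 was at 0% and 1.94% in siControl and 100% and 100% in siANP32B. USP31 was at 2.25% and 2.25% in siControl and 93.3% and 29.2% in siANP32B, again with no overlap but with a wide gap between the siANP32B replicates. A domain of 701 kb over ZNF423 was single in siANP32B replicate 2 and split in 3 in siANP32B replicate 1. ZNF423, a zinc finger transcription factor gene, was at 22.3% and 6.43% in siControl and 53.4% and 100% in siANP32B.

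Along the chromosome in steps of 5 Mb, 17 steps held a domain. In 12 of them, 70.6%, both siANP32B libraries lay above both siControl libraries, and in 0 below. Over all chromosomes 39.7% of such steps lay above and 10.6% below. The largest difference was between 20 and 25 Mb, a step with 53 coding genes that include the ACSM and PRKCB loci, at 41.1% and 42.1% in siControl and 66.7% and 59.3% in siANP32B. Between 5 and 10 Mb, a step of 15 coding genes that include most of GRIN2A, coverage was 17.2% and 17.1% for siControl against 42.7% and 29.5% for siANP32B. Between 50 and 55 Mb, a step of 21 coding genes, it was 39.3% and 40.8% against 52.0% and 57.2%. In these 3 steps the mean differences were 21.4, 18.95 and 14.6 percentage points.

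In the remaining 5 steps the groups overlapped. The gene-dense end of the short arm, from 0 to 5 Mb with 197 coding genes, was at 29.0% and 23.6% in siControl and 31.0% and 26.8% in siANP32B. From 15 to 20 Mb the values were 32.6% and 44.2% in siControl and 40.1% and 36.6% in siANP32B, with a difference in means of -0.05 points. The step from 60 to 65 Mb, with the neuronal cadherin gene CDH8 as its 1 coding gene, was nearly free of domains in all 4 libraries, at 1.28%, 0.38%, 0.32% and 0.58%. From 65 to 70 Mb the values were 23.4% and 21.2% in siControl and 27.3% and 22.8% in siANP32B. The short end step, past 90 Mb, was at 43.9% and 38.6% in siControl and 51.1% and 19.3% in siANP32B, a difference in means of -6.05 points. The longest stretch free of domains in all libraries, chr16:32000001-46534000, was 14.5 Mb long, and held 10 coding genes; it takes in the centromere.

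**Figure D4:**
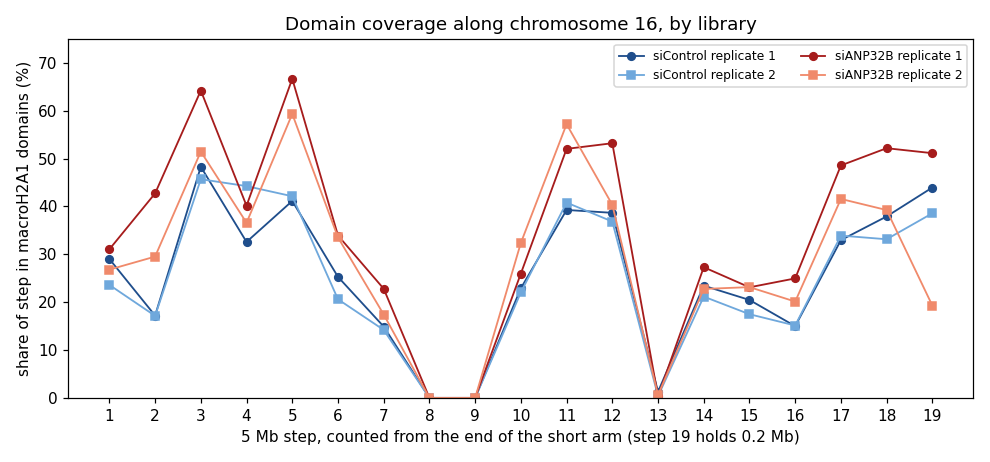
Share of each 5 Mb step of chromosome 16 in macroH2A1 domains (y axis, %), by library, with steps counted from the end of the short arm (x axis). The siANP32B lines lie above the siControl lines in 12 of the 17 steps with a domain, with the widest gap in step 5 (20 to 25 Mb).

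Both arms gained length. On the short arm siControl domains added up to 10.4 and 10.4 Mb, against 15.1 and 12.7 Mb for siANP32B. On the long arm they added up to 11.7 and 11.1 Mb, against 15.5 and 13.9 Mb. The share of chromosome 16 domain length on the short arm was 47.1% and 48.3% for siControl against 49.3% and 47.8% for siANP32B, where the groups overlap (exact permutation p = 0.667).

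Most of what siControl cells had was kept. Length in domains of both siControl libraries was 17.7 Mb, of which 89.8% lay in domains of all 4 libraries. On the other chromosomes this share was 82.0%. Length in both siANP32B libraries was 23.2 Mb. The overlap of 2 libraries, as the shared length over the length in either, was 0.682 for the siControl pair and 0.683 for the siANP32B pair. For the 4 pairs across groups it ran from 0.592 to 0.637, below both pairs within a group.

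The longest stretch in domains of both siControl libraries was chr16:11183001-11551000, 368 kb, all of it within domains of each siANP32B library too. It holds SOCS1, the sperm chromatin genes TNP2, PRM3, PRM2 and PRM1, the DNA repair gene RMI2 and part of LITAF. The printed starts of SOCS1 and PRM2 are from there. Its 2 tested regions were both lower after siANP32B in the authors' deposited table, with log2 folds of -0.80 and -0.76. The next, chr16:88096001-88453000, 357 kb, holds ZNF469, a gene linked to brittle cornea syndrome, at 100% in all 4 libraries. Its 1 tested region had a log2 fold of -0.63 in the authors' deposited table. The stretch at chr16:88858001-89091000, 233 kb, holds CBFA2T3, a transcriptional corepressor gene, also at 100% in all 4. There 3 of 3 tested regions were lower in the authors' deposited table, from -0.81 to -0.65 on the log2 scale.

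The length within domains of both siANP32B libraries and of no siControl library, called gained here, was 3.34 Mb in 166 stretches. Of these, 157 touched a siControl domain and held 82.3% of the length, and 34, with 1.41 Mb, filled a gap between siControl domains. The other 9 stood apart, with 0.591 Mb. The short arm held 68.1% of this length, against 46.8% of the length in both siControl libraries. Chromosome 16 held 7.29% of such length over all chromosomes. The authors' deposited table tested 0.179% of it, so its regions give no second measure of the gained stretches. Gained minus lost length was 3.02 Mb with all libraries and 7.41 Mb without siANP32B replicate 2. Leaving a library out relaxes the rule, so gained and lost length can each only stay or rise.

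The longest gained stretch was chr16:13495001-13827000, 332 kb, beyond the covered part of SHISA9. The second was chr16:26989001-27208000, 219 kb, which holds C16orf82 and the start of KDM8. KDM8 had 0% and 0% of its bins in siControl domains and 26.3% and 89.5% in siANP32B domains. The third was chr16:27779001-27987000, 208 kb, at the end of KATNIP and within GSG1L, which codes for another protein associated with AMPA receptors. The fourth, chr16:9872001-10062000, 190 kb, lies in GRIN2A, and the fifth, chr16:20071001-20245000, 174 kb, holds the printed start of GPR139. GPR139 itself was at 93.5% and 41.3% in siControl and 100% and 100% in siANP32B.

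Most of the gained length lay in weakly scored domains. Of it, 69.3% in siANP32B replicate 1 and 78.3% in siANP32B replicate 2 fell in domains below the median chromosome 16 score of that library. For all domain length the shares were 48.4% and 53.1%. Domains over 500 kb held 40.3% and 41.9% of it.

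The opposite set, in both siControl libraries and neither siANP32B library, was 0.327 Mb in 29 stretches, 1.68% of such length over all chromosomes. Its longest stretch was chr16:12566001-12662000, 96 kb, over the ends of SNX29 and CPPED1. The second, chr16:11915001-11986000, 71 kb, holds NPIPB2, TNFRSF17 (BCMA, a receptor of plasma cells) and the printed start of SNX29. TNFRSF17 was at 100% and 100% in siControl and 0% and 0% in siANP32B. NPIPB2, at chr16:11927263-11976643, is one of the near-identical NPIP copies, whose reads can be assigned to the wrong copy. Coverage over that part of the stretch is therefore uncertain. The third, chr16:75112001-75140000, 28 kb, holds LDHD, the D-lactate dehydrogenase gene, and the start of ZFP1. LDHD was at 83.3% and 100% in siControl and 0% and 0% in siANP32B. Here the authors' deposited table has a region as well, ZFP1 below. In siControl replicates 1 and 2 the domains at the longest of these stretches scored 20.9 and 29.0, and at the second 55.7 and 33.4. Those scores were below the chromosome 16 medians of the same libraries, 75.1 and 79.8. The domains at the third stretch, scored 135 and 108, were above them.

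The 149 chromosome 16 regions of the authors' deposited table add up to 3.945 Mb and lay almost wholly in domains, with 97.5% of their length in domains of both siControl libraries. Of the domain length in both siControl libraries, 21.8% was tested in the authors' deposited table. In it 88 regions (59.1%) were lower after siANP32B at a false discovery rate under 0.05 and 7 (4.70%) were higher. Over all chromosomes 58.4% were lower and 3.82% higher, so the chromosome 16 shares lay near the background of the authors' deposited table. In the authors' deposited table the median log2 fold was -0.47 on chromosome 16 and -0.54 over all regions, and 90.6% of chromosome 16 folds were below 0. No source used here says how libraries were scaled for that table, and another scaling would move all of its folds together. The table gives no standard errors or values per library, and does not name which group comes first. The direction of its folds was inferred from the domain lists, as given below.

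The lowest p-value on the chromosome was at ACSM2B, which codes for a medium-chain acyl-CoA ligase of liver and kidney mitochondria. The region chr16:20557001-20613000 overlapped 19.4 kb of that gene and had a log2 fold of -1.42 in the authors' deposited table (adjusted p = 1.17e-15). All 4 libraries had 100% of this region in domains. At ZFP1, a zinc finger protein gene, the region chr16:75124001-75136000 had a log2 fold of -1.46 (adjusted p = 2.97e-13) in the authors' deposited table. It was 100% and 100% in siControl domains and 0% and 0% in siANP32B domains. ZFP1 is thus a place where both deposited measures fell, although they come from the same libraries. The sign of the fold was also settled from the domain lists, so the measures are not independent in direction.

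KIFC3, a kinesin gene, had a log2 fold of -1.12 (adjusted p = 3.86e-09) in the authors' deposited table, and CRISPLD2, a secreted protein gene, -1.05 (adjusted p = 1.94e-07). Both regions lay 100% in domains in each library. The region over LINC02125, chr16:76644001-76656000, stood at -1.28 (adjusted p = 1.40e-11) in the authors' deposited table, with 100% and 100% in siControl domains and 50.0% and 91.7% in siANP32B domains. These 5, of 149, were the regions lower by more than 1 on the log2 scale, against 258 of 4474 over all chromosomes. At least 50% of a lower region lay in a domain for 88 and 88 of the 88 in siControl and for 86 and 85 in siANP32B, so lower signal came in most cases without loss of the domain call.

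Of the 7 higher regions 4 overlapped no coding gene, against 36 of the 88 lower (40.9%) and 21 of the 54 not past (38.9%). The region chr16:25291001-25305000, 33.2 kb from ZKSCAN2, had a log2 fold of 1.38 (adjusted p = 1.43e-11) in the authors' deposited table. Domains covered 0% and 78.6% of it in siControl but all of it in both siANP32B libraries. The region chr16:23223001-23264000, 6.12 kb from the epithelial sodium channel gene SCNN1G, had 1.18 (adjusted p = 6.04e-11) in the authors' deposited table. The region over the start of TMC7, chr16:18976001-19018000, had 1.00 (adjusted p = 8.35e-08) in the authors' deposited table and lay 100% in domains of all 4 libraries. TMC7 as a whole was at 64.2% and 60.5% in siControl and 100% and 100% in siANP32B. At ADAMTS18, a secreted metalloprotease gene, the authors' deposited table gave 0.82 (adjusted p = 3.87e-05) for the region chr16:77289001-77320000. Further regions within ADAMTS18 went the other way in the authors' deposited table, with a log2 fold of -0.55 (adjusted p = 0.0107) at chr16:77349001-77366000 and -0.33 (adjusted p = 0.151, not past) between them. The region at NPIPB5 stood at 0.99 in the authors' deposited table, overlapped that gene by 3.54 kb of its 30.0 kb, and is uncertain since NPIP genes are near-identical copies whose reads can be assigned to the wrong copy. Regions chr16:49927001-49948000 and chr16:54599001-54653000 both had 0.61 for their representative window in the authors' deposited table. It counted 11 of 12 windows as up in the first but 9 of 45 in the second. Of the 7 higher regions, 5 lay in siANP32B domains over 200 kb in both libraries. Of the 88 lower regions 26 did (29.5%), near the 48 of all 149 regions (32.2%). This split was chosen after the values were seen, and both measures come from the same libraries.

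**Figure D5:**
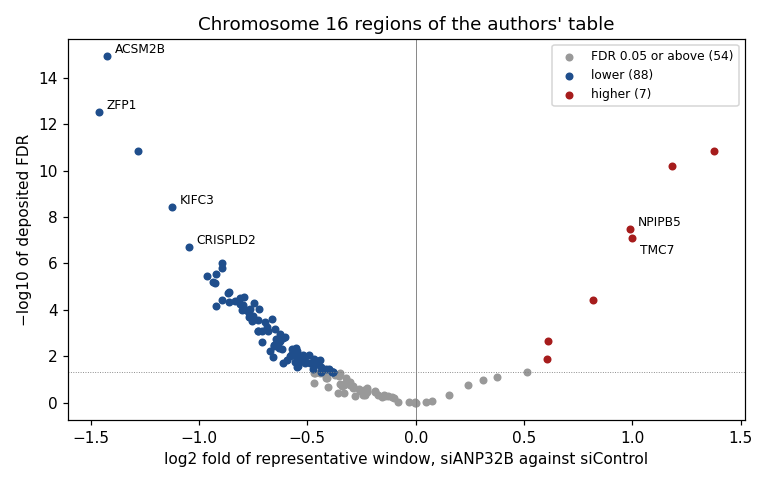
The 149 chromosome 16 regions of the authors' deposited table, by log2 fold of siANP32B against siControl (x axis) and −log10 of the deposited false discovery rate (y axis). Blue points are the 88 lower regions, red the 7 higher and grey the 54 at or above 0.05 (dotted line), and ACSM2B and ZFP1 lie at the far left at -1.42 and -1.46.

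A gene was counted as covered where domains held 50% or more of its 1 kb bins. Of the 854 coding genes of chromosome 16, 185 (21.7%) were covered in both siControl libraries, against 13.8% over all chromosomes, and 161 (18.9%) in all 4 libraries, against 11.6%. No library had a domain on 292 (34.2%), against 46.9%. Covered genes numbered 240 and 219 in siControl and 349 and 248 in siANP32B. Coverage in both siANP32B and neither siControl library was found for 25 genes (2.93%, against 2.22% over all chromosomes), and the opposite for 3 (0.351%, against 0.604%), which were NPIPB2, TNFRSF17 and LDHD. NPIPB2, whose coverage is uncertain, and TNFRSF17 lie in the same lost stretch. The share of gained genes lies near the background. Without siControl replicate 1 or 2 the gained genes numbered 48 and 42, and without siANP32B replicate 1 or 2 they numbered 41 and 103. The lost genes then numbered 8, 17, 24 and 3. Leaving a library out relaxes the rule for both sets, so neither count could fall.

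The 25 gained genes had varied roles. They were RPUSD1, TPSG1, PERCC1, CCDC154, MMP25, GRIN2A, CEP20, COQ7, HS3ST2, PRKCB, C16orf82, GSG1L, TBX6, YPEL3, GDPD3, PRSS8, ITGAD, COX6A2, ZNF843, ZNF423, CNEP1R1, PLLP, DOK4, CES3 and DHODH. PRKCB, a protein kinase C gene of immune cells and brain, was at 31.3% and 29.0% in siControl and 61.1% and 66.8% in siANP32B. ITGAD, a leukocyte integrin gene, was at 35.3% and 2.94% in siControl and 100% and 100% in siANP32B. CES3, a carboxylesterase gene, was at 46.7% and 6.67% in siControl and 100% and 100% in siANP32B.

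Gene groups are given beside the 21.7% of coding genes covered in both siControl libraries and median coverage of 2.13% in siControl and 13.1% in siANP32B over all 854 genes. Among genes that overlapped a tested region, the region with the smallest p was lower for 61, higher for 3 and not past for 29 in the authors' deposited table. All 11 metallothionein genes, which code for metal-binding proteins, lay in domains of all 4 libraries, and the 1 tested region that overlapped members (MT1B and MT1F) had a log2 fold of -0.14 in the authors' deposited table and did not pass. Of the 9 tryptase and serine protease genes at 16p13.3, 7 were covered in both siControl libraries and in all 4. TPSB2, TPSAB1 and TPSD1 overlapped 1 lower region of the authors' deposited table (log2 fold -0.62) and PRSS41 another (-0.55). The region at PRSS22 did not pass in the authors' deposited table (-0.33, adjusted p = 0.396). TPSG1 was at 20% and 40% in siControl and 100% and 60% in siANP32B.

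Among 8 cadherin genes, whose products hold cells together, 5 were covered in both siControl libraries. CDH1, the E-cadherin gene, was at 71.7% and 94.9% in siControl and 100% and 77.8% in siANP32B, where the groups overlap, while a region within it had a log2 fold of -0.89 (adjusted p = 1.63e-06) in the authors' deposited table. CDH3, beside it, was at 100%, 91.0%, 100% and 100%, with -0.94 (adjusted p = 6.42e-06) in the authors' deposited table. CDH11 and CDH16 also overlapped lower regions of the authors' deposited table, with log2 folds of -0.96 and -0.86. CDH5, the endothelial cadherin gene, was at 100% in all 4 libraries and CDH8 at 0% in all 4. Of 8 chemokine genes and relatives, the neighbours CCL22, CX3CL1 and CCL17 were at 100% in all 4 libraries and overlapped lower regions of the authors' deposited table.

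Of 15 leukocyte genes, 8 were covered in both siControl libraries. ITGAL, ITGAX, SPN, IL21R and NLRC5 were at 100% in all 4 libraries. CIITA, the master regulator of MHC class II genes, was at 88.5% and 79.5% in siControl and 100% and 0% in siANP32B, so the siANP32B replicates disagreed. Among 8 genes of the ACSM locus, 5 were covered in both siControl libraries, and 5 overlapped a tested region. ACSM2B and ACSM5 overlapped lower regions of the authors' deposited table, while the region shared by ACSM1 and ACSM3 (log2 fold -0.35, adjusted p = 0.0542) and that in PDILT (-0.11, adjusted p = 0.570) did not pass in the authors' deposited table. Of 5 alpha-globin cluster genes, 4 were covered in both siControl libraries. HBA1 and HBA2, the adult alpha-globin genes, were at 100%, 100%, 100% and 0%, and siANP32B replicate 2 stood apart.

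Of 13 hepatocyte and metabolic genes, 3 were covered in both siControl libraries, a share near that of all coding genes on the chromosome (21.7%), and 7 had no domain in any library. HP and LCAT, which code for haptoglobin and a plasma cholesterol esterifying enzyme, were at 0% in all 4 libraries. TAT, CETP and SULT1A1, for tyrosine aminotransferase, a lipid transfer protein and a sulfotransferase, were at 100% in all 4. Of 8 oxidative phosphorylation and V-ATPase genes and 10 translation genes, 0 and 0 were covered in both siControl libraries. The FOX genes FOXF1, FOXC2 and FOXL1 at 16q24, transcription factor genes of mesoderm, were each at 0%, 0%, 100% and 0%, in a domain of siANP32B replicate 1 alone. No gene's transcription was measured in these libraries.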

How the data were processed

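CUT&RUN domain lists of 4 anti-macroH2A1 libraries were used, 2 per siRNA group, grouped by the labels; the 4 IgG libraries were not used here. Per the submitters' processing notes the authors used SICER, edgeR, Bowtie2, Trim Galore, SAMtools and deepTools and the build hg38, with versions and settings that no source used here gives. The authors deposited 1 domain list per library, on a 1 kb grid, with a caller's score for each domain. Per the file headers, the authors' deposited table gives each region's p-value and false discovery rate, the fold of a representative window and numbers of windows up and down. The authors deposited no log base, and log2 was assumed for the deposited fold, as the authors' tool edgeR writes it. Which group comes first is not named in it, and the sign was settled from the domain lists: regions higher in it were covered on average at 84.0% and 75.4% in siControl and 97.8% and 97.8% in siANP32B. Regions lower in it were at 95.3% and 93.3% in siControl and 90.2% and 91.3% in siANP32B, a smaller shift. Both sources share libraries. Its deposited false discovery rates matched Benjamini-Hochberg values over all 4474 regions (largest difference 1.11e-15). With no counts per library the table was not refitted, and depth is unknown.

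Domains were placed on 1 kb bins with Python 3.11.15, numpy 2.4.6 and pandas 2.3.3, and the reading was tested on simulated domains. Libraries were compared by a two-sided exact permutation test. Genes, promoters and miRNAs came from RefSeq tables of GRCh38.p14, which is the build hg38. Members, gene lists and tests were chosen with earlier results of these data known. Genes were named where they overlapped the called regions with the 10 smallest p-values in each direction, where they lay in the longest shared, gained or lost stretches, and from 18 lists of genes by locus or role (up to 4 with the widest coverage and the one with the smallest p); other genes named were chosen after their values were seen. The further lists were ion channels, ABC transporters, metalloproteases, carboxylesterases, Iroquois factors, developmental regulators and NPIP copies. Alternatives were a common minimum score, equal numbers of best-scored domains, domains of at least 20 kb, other covered shares, stricter thresholds, leaving out each library and a replicate block.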

Additional observations from a re-analysis of the deposited data

How the results depend on the processing

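Of 84 alternatives, 3 turned a difference around and 21 moved a count or length past its spread or by over 1.5 times. Counts of steps, genes and regions were scored only as kept or moved. A turn between such counts, as at the common score below, is therefore among the 21. The other 60 kept the direction, though not always the size, or for counts stayed within 1.5 times. The difference in domain number (-58.5) became -88.0 at the common score below and -3.0 with equal numbers of best-scored domains, where the groups overlapped (exact permutation p = 1.0). With equal numbers the difference in covered length was 10.4 Mb (6.79 as reported) and in the share of all domain length 1.03 points (0.666 as reported). Leaving out each library in turn gave 0.339 to 0.992 points for that share, lowest without siANP32B replicate 1. With only domains scored at or above 81.1, the median of all 4 lists, siANP32B minus siControl became -4.73 Mb for covered length, -0.617 points for the share of all domain length and -1.64 Mb for length gained minus lost (3.02 Mb as reported). At that score 125 and 146 chromosome 16 domains remained in siControl and 50 and 45 in siANP32B, siANP32B lay above in 1 step and below in 11, and 76 genes were covered in both siControl libraries, 10 gained and 28 lost. With equal numbers of best-scored domains, gained minus lost length was 4.71 Mb and gained genes numbered 43. Leaving out each library in turn gave a gained minus lost length from 3.87 to 7.41 Mb, 1 step below in each case, and 41 to 103 gained genes. It also gave 3 to 24 lost genes. Leaving a library out relaxes the rules for gained, lost and non-overlapping steps, so such counts could only stay or rise. The highest gained values came without siANP32B replicate 2, and 24 lost genes without siANP32B replicate 1. At 25% covered, 5 genes were lost. Among regions of at least 20 kb, 6 of 66 were higher in the authors' deposited table. At a false discovery rate of 0.01, 61 regions were lower and 6 higher in the authors' deposited table.

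With a replicate block, which takes differences within each replicate number, the domain count difference stayed at -58.5, covered length at 6.79 Mb and median length at 26.0 kb, with exact p = 0.5, the smallest it can give. Deviations of same-numbered libraries had a correlation of 0.285 over 585 steps of all chromosomes, but 2 pairs do not show that the numbers pair the libraries.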

Other observations

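In some further groups the libraries split in ways the siRNAs do not. CMTM1 and CMTM2 at 16q22 lay mostly in domains in 3 libraries and were at 0% in siANP32B replicate 2. CMTM1 was at 64.3%, 78.6%, 92.9% and 0%, and CMTM2 at 100%, 80.0%, 100% and 0% (siControl replicates 1 and 2, siANP32B replicates 1 and 2). MMP2, a matrix metalloprotease gene at 16q12, was at 100%, 58.6%, 100% and 0%. CES1 and CES5A, carboxylesterase genes, were at 0%, 0%, 59.4% and 0% and at 0%, 0%, 70.3% and 0%, in siANP32B replicate 1 alone.

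The NPIP family of near-identical copies was free of domains in 12 of its 18 listed members. NPIPA5 was at 73.7%, 68.4%, 78.9% and 100%, and NPIPB2 at 100%, 100%, 0% and 0%. Reads from such copies can be placed on the wrong member, so their coverage is uncertain. ABCC11 and ABCC12, neighbouring ABC transporter genes, were at 96.4%, 100%, 97.6% and 100% and at 81.6%, 92.1%, 100% and 100%. Of 3 Iroquois genes, IRX3 was at 100% in all 4 libraries, IRX5 at 0%, 0%, 100% and 0%, and IRX6 at 0% in all 4. RBFOX1, a splicing factor gene of neurons and the longest of the listed genes, was at 0%, 0.889%, 14.9% and 0.283%.

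Of the lists not counted above, the genes covered in both siControl libraries numbered 5 of 8 chemokine genes and relatives, 3 of 9 ion channel and receptor genes and 2 of 5 ABC transporter genes. They numbered 2 of 4 metalloprotease genes, 1 of 5 carboxylesterase genes, 1 of 3 Iroquois genes, 2 of 18 NPIP copies, 0 of 3 FOX genes and 0 of 6 developmental regulators.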
